A study of Rattus norvegicus with 40 samples.

Results

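The potassium and sodium channel genes were followed in cultured neonatal rat ventricular heart muscle cells during ischemia and during ischemia with reperfusion. Members were the probe sets, the groups of short probes that together measure a transcript, whose single gene symbol began with Kcn or had the form Scn, a number and a or b. The rule found 140 probe sets for 87 of the 14217 genes with 1 symbol on the array, and each gene was represented by its brightest probe set over the 40 arrays.

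The cells were exposed to coverslip hypoxia, in which a glass coverslip laid over a cell layer limits its supply of oxygen and medium. Total RNA was measured on Affymetrix rat arrays in 10 groups: ischemia at 0, 10, 30, 60 and 120 min, and ischemia+reperfusion at 0, 10, 30, 60 and 120 min. Each group had 4 arrays, 2 duplicates from each of 2 cell preparations. All groups carry the coverslip model in their labels, the 0 min groups included, and no untreated group outside the model was analysed. The labels name no strain, sex or genotype, and do not define what the minutes count in the reperfusion arm. They also do not say whether duplicates were separate cultures, or whether a preparation number stands for the same preparation in every group. Duplicates were averaged before testing, and a constant difference between the 2 preparations was taken out, which assumes that they were shared by all groups. The p-values rest on how far the preparations disagreed about differences between groups, pooled over the 10 groups. They do not measure the spread between duplicates. Part of the measured spread may be technical.

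Potassium channels let potassium leave the cell and so end the action potential and hold the resting voltage, while sodium channels carry the inward current that starts it. Heart muscle uses several families at once: voltage-gated channels for repolarization, inward rectifiers and two-pore channels near rest, and ATP-sensitive channels that open when energy falls. Most pore-forming subunits work together with smaller auxiliary subunits that set how fast the channel opens and where it sits in the membrane. Messenger RNA levels are described here, which are not currents.

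Most channel genes gave little signal. A gene was counted as well above background if its deposited intensity exceeded, on at least 20 of 40 arrays, a bound set per array at the 95th percentile of the size of the negative values, between 157 and 253. By that rule 15 of the 87 channel genes (17.2%) were well above background, against 59.2% of the 14217 genes with 1 symbol. The count was 34 with the bound at the 75th percentile and 9 at the 99th. Only 8 of the 87 exceeded the bound on all 40 arrays, and 61 exceeded it on none. The bound is conservative for a dim probe set, and a gene under it is described as not well above background rather than as absent.

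The 15 were spread unevenly over the channel classes. Among 24 voltage-gated potassium pore subunits they were Kcnh2 (hERG, the rapid delayed rectifier), Kcnq1 (the pore of the slow delayed rectifier) and Kcnh3. Of 7 silent subunits, which alter other potassium channels and carry no current alone, Kcng2 was well above background. Kcne1, the partner of Kcnq1, was 1 of 3 among 13 auxiliary subunits, with Kcne4 and Kcnmb4. The 15 inward rectifiers contributed Kcnj8 and Kcnj11, the pores of ATP-sensitive channels, and Kcnj5 and Kcnj6, pore subunits of G protein-gated channels. Two-pore channels added Kcnk3 (TASK-1) and Kcnk6 of 11. The sodium channel beta subunits Scn3b and Scn4b were well above background, Scn2b was not, and 0 of 9 sodium channel alpha subunits were. None of the 5 calcium- or sodium-activated potassium channels was.

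**Figure D1:**
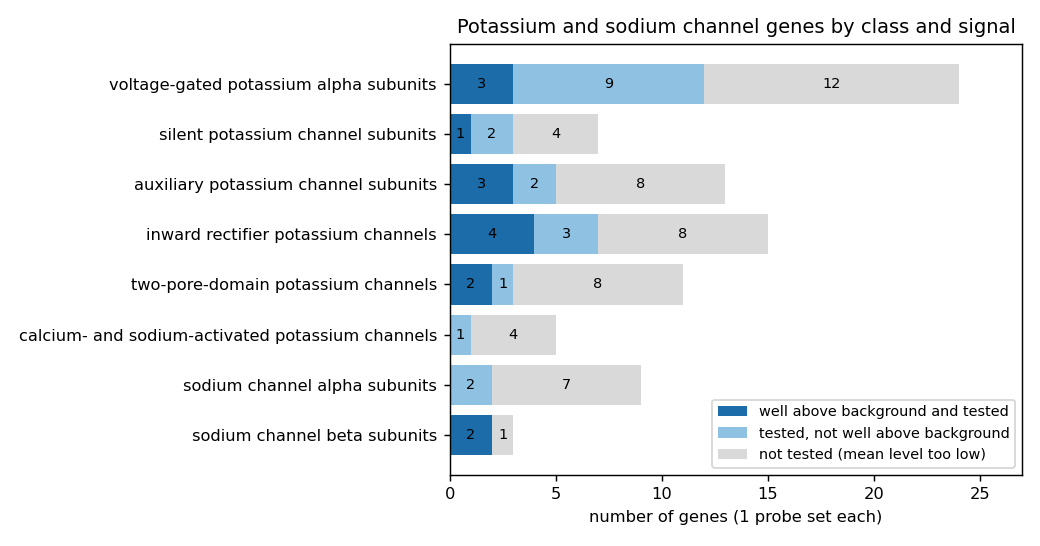
Number of channel genes, 1 probe set each, in each of 8 classes; dark blue bars count genes well above background, light blue bars genes that were tested but not well above background, and grey bars genes too dim to test. In every class but the sodium channel beta subunits the light blue and grey parts together are longer than the dark blue part.

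Values were set to a common scale between arrays by quantile normalization and are given as log2(intensity + 16), where 4 is the floor that a value of 0 or less takes. A change is a difference on that log2 scale and understates the change of dim genes. Genes with a mean level above 6.48 were tested, which left 35 of the 87 channel genes, among them all 15 well above background. The 52 genes left out include well-known cardiac channels. Kcna4 and Kcna5, subunits of the transient outward and ultrarapid potassium currents, had medians over the 40 arrays of 5.82 and 6.19. Kcnj2 and Kcnj12, pores of the classical inward rectifier, had medians of 5.42 and 6.20, and neither exceeded the bound on any array. Kcnk2 (TREK-1) had a median of 6.35, Kcnk1 5.84 and Kcnma1 5.32. No change is reported for these genes.

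In the arrays as a whole, the cardiac muscle markers were present, with 9 of 9 listed markers on the array well above background. Other cell types were present too: 8 of 8 fibroblast, 6 of 6 smooth muscle and pericyte, 6 of 7 macrophage and 3 of 5 endothelial markers were well above background. Of 11 neuron markers 8 were not, Snap25, Syt1, Stmn2, Nefl and Nefm among them. Each level is therefore that of a mixed culture, in which fewer cells of a type and less RNA per cell cannot be told apart. The first duplicate of preparation 1 in ischemia at 0 min stood apart: its correlations over tested probe sets had a median of 0.872, where the other 39 arrays had 0.960 to 0.979. The inducible heat shock gene Hspa1a went against the labels on a pair of arrays at 120 min: the second duplicate of preparation 2 in ischemia read 13.15, and the first duplicate of preparation 2 in ischemia+reperfusion read 9.75, each near the level of the other arm. Calls that were gained or lost without these arrays are named beside the genes.

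Each time was compared with 0 min of its own arm in a limma fit of all 10 groups with the preparation as a block, and p-values were adjusted over the 18625 probe sets tested. An adjusted p under 0.05 is a call. Between 0 and 7 of the 35 tested channel genes were called at each time. Against ischemia at 0 min, 4 (11.4%) were called at 10 min, where 1.98% of all probe sets were called. At 30 min 1 was called (2.86%, against 0.0966% of all probe sets), at 60 min 1 (2.86%, against 0.129%), and at 120 min 7 (20%, against 12.9%). With all arrays and all 35 genes the channel share was the higher at each time of ischemia. At 30 min it rested on Scn1a alone and at 60 min on Kcnk3 alone. Without the outlying 0 min array, 0 channel genes were called at 30 min and 0 at 60 min (0.0107% and 0.0913% of all probe sets). Against ischemia+reperfusion at 0 min, 0 were called at 10 min (0.0376% of all, with 4 channel genes at an unadjusted limma p under 0.05). At 30 min 1 was called (2.86%, against 0.784%), at 60 min 2 (5.71%, against 4.69%) and at 120 min 2 (5.71%, against 7.17%). Without the pair of arrays that went against their labels for Hspa1a, 10 were called at 120 min of ischemia (16.3% of all probe sets) and 1 at 120 min of ischemia+reperfusion (7.4%). The genes added were Kcne4, Kcnh3 and Kcnj8, and the one lost was Kcng2 with reperfusion. Scn1a passed the filter only through its high level in ischemia at 0 min, and the 34 other genes had 3, 0, 1 and 6 calls at the 4 times of ischemia. Without the preparation as a block, 10 of the 19 calls made for a channel gene in a pairwise comparison missed the threshold: those of Kcnd2, Kcne3 and Kcnj3 against 0 min, Scn1a at 10 and 30 min, Kcnk3 at 60 min of ischemia and 30 min of ischemia+reperfusion, and Kcng2 at 120 min of ischemia+reperfusion (limma adjusted p 0.051 to 0.35). Comparisons within an arm share their 0 min arrays, so these counts are not independent of each other.

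Over the 14 pairwise comparisons, 7 of the 35 channel genes (20%) had at least 1 call, against 22.1% of all probe sets tested, and 6 of 34 without Scn1a. The share of channel genes with a call was thus near that of the array as a whole. A test for any difference among the 10 groups called 6 channel genes and 15.2% of all probe sets, and added Kcnh3 to the 7. Of these 8 genes, Kcnk3, Kcng2 and Kcnh3 were well above background, and the other 5 were not. The remaining 27 tested genes had no call.

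The median change of the 35 genes against ischemia at 0 min was 0.25 at 10 min, 0.23 at 30 min, 0.25 at 60 min and 0.20 at 120 min, where the median over all probe sets lay between 0 and 0.003. In the reperfusion arm the medians were -0.01, 0.12, 0.18 and 0.04. The 4 ischemia medians share the outlying 0 min array, and without it they were 0.23, 0.08, 0.19 and 0.13.

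Kcnk3 had the most calls. It encodes TASK-1, a two-pore-domain potassium channel that passes a background current and closes when the outside of the cell turns acid. Its probe set (1387441_at) read 6.74, 8.34, 7.91 and 8.14 in ischemia at 0 min. At 10 min the 4 arrays read 8.97, 8.93, 9.11 and 9.36, and at 120 min 9.26, 9.16, 9.17 and 9.32. Every array at 10 and 120 min lay above every array at 0 min, and the lowest 0 min value came from the array that stood apart.

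In that arm Kcnk3 rose by 1.31 (SE 0.16, limma adjusted p 0.0091) at 10 min and 1.44 (adjusted p 0.0017) at 120 min, 2.48 and 2.72 times the 0 min level. The change was 1.06 (adjusted p 0.037) at 60 min and 0.97 (adjusted p 0.066) at 30 min, where it did not pass. Preparation 1 gave 1.67 and preparation 2 gave 1.22 at 120 min, so both moved the same way. Without the outlying 0 min array the change was 0.91 (adjusted p 0.036) at 10 min and 1.05 (adjusted p 0.0055) at 120 min, and at 60 min it was 0.67 (adjusted p 0.15), which ended that call. It was also lost without the second duplicate of preparation 1 or the first of preparation 2 at 0 min, or the first duplicate of preparation 1 at 60 min.

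The reperfusion arm did not contain that array. Kcnk3 read 7.96, 8.15, 7.87 and 8.41 in ischemia+reperfusion at 0 min, and 9.10, 9.20, 9.19 and 9.34 at 120 min. The groups did not overlap. It rose by 1.03 (SE 0.16, limma adjusted p 0.019) at 30 min, 1.09 (adjusted p 0.0096) at 60 min and 1.11 (adjusted p 0.0075) at 120 min, with 1.10 and 1.13 in the preparations at 120 min. At 10 min the change was 0.76 (adjusted p 0.10), with a single array at 8.04 and the others between 8.95 and 9.28.

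The arms did not differ by a call for Kcnk3 at any time. At 120 min ischemia+reperfusion minus ischemia was -0.02, with a 95% interval from -0.38 to 0.34. A second Kcnk3 probe set (1375807_at), above the bound on 1 array, gave -0.24 at 10 min and 0.38 (limma adjusted p 0.27) at 120 min of ischemia, and 0.71 (adjusted p 0.09) and 0.61 (adjusted p 0.12) at 60 and 120 min of ischemia+reperfusion. The rise thus passed the test on the brighter probe set alone. Its relative Kcnk6 (TWIK-2) had no call, with 0.09 (adjusted p 0.85) at 120 min of ischemia.

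**Figure D2:**
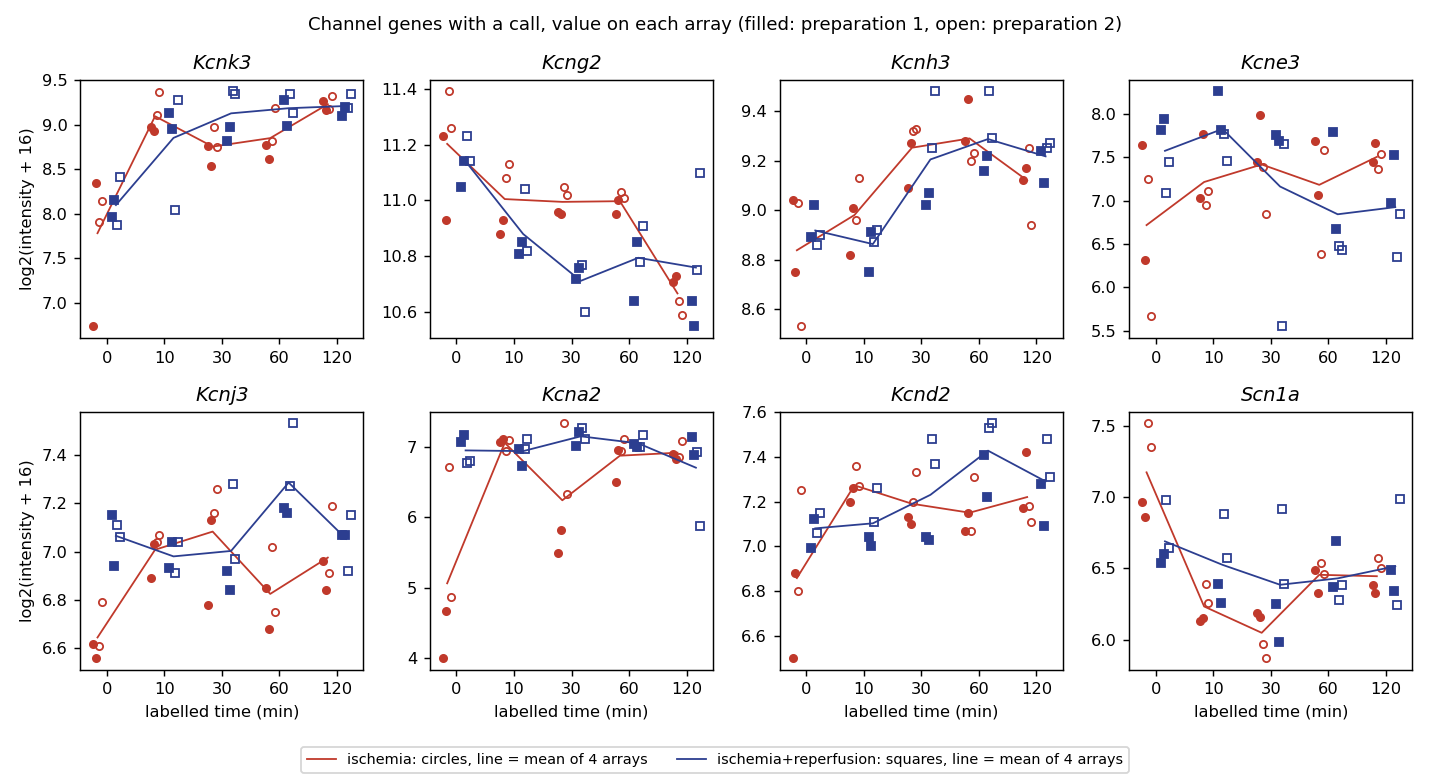
Level of the 8 channel genes with a call on every array, as log2(intensity + 16), against labelled time in min; red circles are ischemia, blue squares ischemia+reperfusion, filled marks preparation 1, open marks preparation 2, and lines join the means of 4 arrays. Kcnk3 lies higher at 120 min than at 0 min in both arms and Kcng2 lies lower, while the other 6 panels show wider scatter or an ischemia 0 min group that lies away from the other groups.

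Kcng2 moved the other way. It encodes Kv6.2, a silent subunit that forms channels only together with other pore subunits. Its probe set (1374814_at) read 11.23, 10.93, 11.39 and 11.26 in ischemia at 0 min and 10.71, 10.73, 10.64 and 10.59 at 120 min. All 4 arrays at 120 min lay below all 4 at 0 min. It fell by 0.53 (SE 0.09, limma adjusted p 0.0087), to 0.691 of the 0 min level, with a fall in both preparations, and the call held without any single array of either group.

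In ischemia+reperfusion Kcng2 read 11.05, 11.14, 11.23 and 11.14 at 0 min and 10.64, 10.55, 10.75 and 11.10 at 120 min, where the highest array reached the range of the 0 min group. The fall at 120 min was 0.38 (SE 0.09, limma adjusted p 0.036), and at 30 and 60 min the change was -0.43 (adjusted p 0.069) and -0.34 (adjusted p 0.061). The call at 120 min was lost without the first duplicate of preparation 2 in either group, with an adjusted p of up to 0.15, and without the pair of arrays that went against their labels for Hspa1a (adjusted p 0.14). A second Kcng2 probe set (1390473_at), above the bound on 39 arrays, gave 0.23 (adjusted p 0.74) at 120 min of ischemia and -0.57 (adjusted p 0.47) in the reperfusion arm. In ischemia its preparations went apart, with 1.41 and -0.94. The fall was therefore not seen on this second probe set in ischemia.

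Kcnh3 was called in the test over the 10 groups only. It encodes Kv12.2, a voltage-gated potassium channel known mostly from brain, and exceeded the bound on all 40 arrays. It read 9.04, 8.75, 9.03 and 8.53 in ischemia at 0 min and 9.28, 9.45, 9.20 and 9.23 at 60 min, without overlap. In ischemia+reperfusion it read 8.89, 9.02, 8.86 and 8.90 at 0 min and 9.16, 9.22, 9.48 and 9.29 at 60 min, again without overlap. The test over groups gave a limma adjusted p of 0.036. That call was lost on the deposited scale, with arrays centred on the median and without the filter, and when any of 6 single arrays was left out: the second duplicate of preparation 1 or the first of preparation 2 in ischemia at 0 min, the first of preparation 1 in ischemia at 60 min, the first of preparation 2 in ischemia at 120 min or in ischemia+reperfusion at 30 min, and the second of preparation 2 in ischemia+reperfusion at 120 min. At 120 min of ischemia its change was 0.28 (adjusted p 0.097), and 0.36 (adjusted p 0.038) without the pair of arrays at 120 min. The pairwise changes at 60 min were 0.45 (SE 0.11, adjusted p 0.12) and 0.37 (adjusted p 0.069), and neither passed.

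The subunits of the slow and rapid delayed rectifiers had no call with all arrays. Kcnq1 had a lowest, median and highest value of 9.75, 10.33 and 10.80 over the 40 arrays. Its arms differed by -0.54 at 60 min (SE 0.16, limma adjusted p 0.072), ischemia+reperfusion minus ischemia, with no overlap between 9.75 to 10.33 and 10.48 to 10.73. That difference passed without the pair of arrays that went against their labels for Hspa1a (adjusted p 0.045). It also passed with duplicates taken as separate samples (adjusted p 0.0032), though the labels do not say that they were separate cultures. Under the other processing alternatives it did not pass (limma adjusted p 0.054 to 0.19). At 120 min of ischemia its change was -0.10 (95% interval -0.45 to 0.25). Kcne1 ranged from 6.66 to 8.83 over the 40 arrays with a median of 8.37. Its lowest array, the second duplicate of preparation 2 in ischemia+reperfusion at 0 min, read 6.66 where the rest of its group read 8.37 to 8.57, and the changes against that group were -0.06 to 0.48. Kcnh2 lay between 7.50 and 8.77. Its arms differed by -0.58 at 10 min (adjusted p 0.23), where the 2 groups did not overlap.

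Kcne4, an auxiliary subunit that dampens Kv1 and Kv7 currents, read 9.02, 8.98, 9.08 and 8.77 in ischemia at 0 min and 9.77, 9.62, 9.38 and 8.99 at 120 min. The change was 0.48 (SE 0.15, limma adjusted p 0.053), which did not pass with all arrays but did without the outlying 0 min array or without the pair at 120 min, and 1 of the 4 late arrays lay within the 0 min range. In ischemia+reperfusion it already read 9.59, 9.59, 9.19 and 9.78 at 0 min and moved by -0.16 (adjusted p 0.56) at 120 min.

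The ATP-sensitive channel pores are of interest in ischemia because these channels open when ATP falls. Kcnj8, which encodes Kir6.1 of vessels and other tissues, read 8.30, 9.24, 8.57 and 8.12 in ischemia at 0 min, 9.44, 9.21, 9.33 and 9.50 at 60 min and 9.53, 9.18, 9.09 and 9.02 at 120 min. All but 1 of the 0 min arrays lay below all of the later ones named. The 4 changes in ischemia ran from 0.58 to 0.81 and those in ischemia+reperfusion from 0.34 to 0.64. None passed: the largest, 0.81 at 60 min (SE 0.22), had a limma adjusted p of 0.15, and the test over all groups gave 0.054. Without the pair of arrays that went against their labels for Hspa1a, the change at 120 min of ischemia was 0.67 and passed (adjusted p 0.043).

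Kcnj8 was also lower in ischemia+reperfusion than in ischemia at 60 min, by -0.67 with no overlap (limma adjusted p 0.092). At 120 min of ischemia 3 of 4 tested endothelial markers (Pecam1, Tek and Tie1) passed the same test as higher. So did 1 of 6 smooth muscle and pericyte markers (Rgs5), 1 of 8 fibroblast markers (Pdgfra) and 1 of 5 neuron markers (Tubb3). None of these lists had a call at 60 min of ischemia or between the arms at 60 min. The summed intensity of the 5 endothelial markers on the array was 1221 to 1650 at 0 min, 1273 to 1790 at 60 min and 1616 to 2203 at 120 min of ischemia, with Pecam1 and Vwf not well above background. That of the 6 smooth muscle and pericyte markers was 17389 to 18908, 17437 to 19224 and 18568 to 19976 at these times, and that of the 8 fibroblast markers 34962 to 40385, 33830 to 38271 and 41192 to 43367. The fibroblast sums at 120 min lay above those at 0 min without overlap, while at 60 min all 3 sums overlapped those at 0 min. Their part in the Kcnj8 values was not tested.

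Kcnj11, the Kir6.2 pore of the heart muscle ATP-sensitive channel, did not change by a call in ischemia. It read 8.33, 9.20, 9.66 and 9.62 at 0 min and 9.24, 9.15, 9.26 and 9.49 at 120 min, a difference of 0.08 (95% interval -0.32 to 0.48). At 60 min it was 0.55 higher in ischemia+reperfusion than in ischemia (SE 0.18, limma adjusted p 0.10), without overlap. A second Kcnj11 probe set (1387698_at), above the bound on all 40 arrays, gave 0.86 (adjusted p 0.033) for that difference, a call. Another (1369782_a_at), above the bound on 39 arrays, gave 0.15 (adjusted p 0.48). At 120 min of ischemia these probe sets gave -0.45 (adjusted p 0.15) and -0.24 (adjusted p 0.18).

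**Figure D3:**
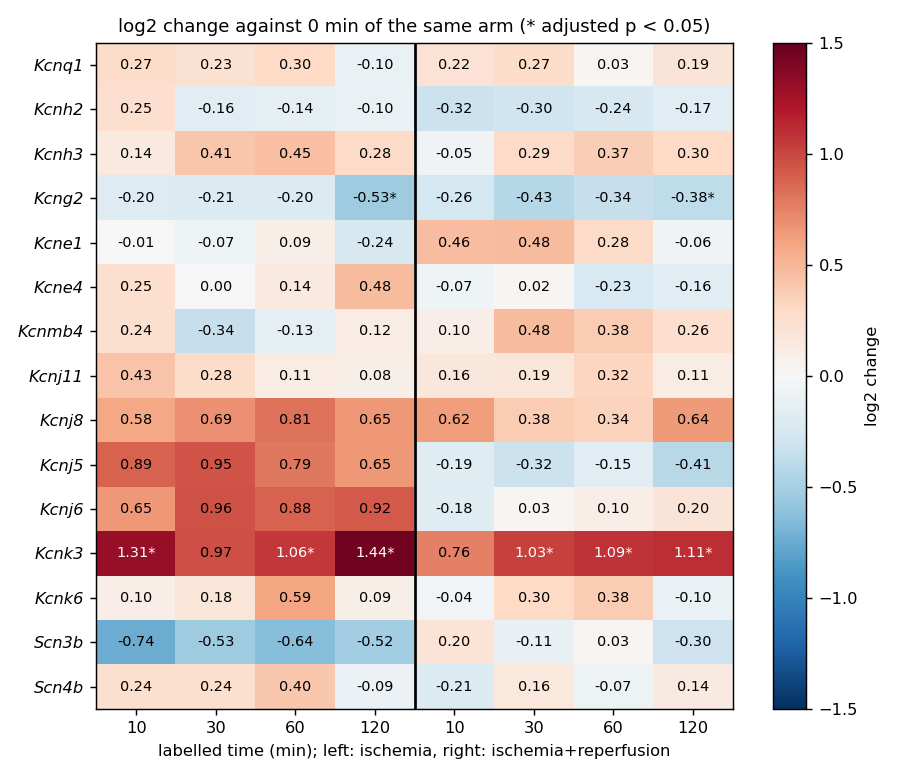
Log2 change against 0 min of the same arm for the 15 channel genes well above background, ischemia on the left and ischemia+reperfusion on the right, at 10, 30, 60 and 120 min; red is higher, blue is lower, and an asterisk marks a limma adjusted p under 0.05. Asterisks stand on Kcnk3 and Kcng2 alone, and the red cells of Kcnj5 and Kcnj6 in ischemia rest on 1 array at 0 min.

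G protein-gated channels slow the heart through acetylcholine and adenosine, and in heart muscle they consist of Kcnj3 and Kcnj5. Kcnj5 (Kir3.4) read 4, 8.64, 8.88 and 8.79 in ischemia at 0 min. Its lowest value there is the floor, on the array that stood apart, and the other 39 arrays lay between 8.04 and 8.88. With all arrays it changed by 0.65 (SE 0.54, limma adjusted p 0.43) at 120 min of ischemia. Without that array the change was -0.51 (adjusted p 0.018), so 1 array turned the direction and the call. The 4 arrays at 120 min read 8.21, 8.11, 8.13 and 8.45, below the other 3 at 0 min. In ischemia+reperfusion the difference at 120 min was -0.41 (adjusted p 0.70), with 8.32, 8.50, 8.26 and 8.04 against 8.54, 8.76, 8.75 and 8.71 at 0 min and no overlap. The SE of that difference is shared over groups and so includes the array at the floor.

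Kcnj3 (Kir3.1) was not above the bound on any array and its values were close together. It read 6.62, 6.56, 6.61 and 6.79 in ischemia at 0 min and 6.89, 7.03, 7.04 and 7.07 at 10 min, without overlap. The rise was 0.36 (SE 0.08, limma adjusted p 0.044) at 10 min and 0.33 (adjusted p 0.023) at 120 min. The first call was lost without the first duplicate of preparation 2 at 0 min or either second duplicate at 10 min, the other without the second duplicate of preparation 2 at 120 min, with an adjusted p of up to 0.06 and 0.052. In ischemia at 60 min it read 6.85, 6.68, 7.02 and 6.75, and in ischemia+reperfusion at 60 min 7.18, 7.16, 7.27 and 7.53. With all arrays and the brightest probe set of each gene, it was the 1 channel gene of 35 called between the arms at 60 min, higher by 0.46 (adjusted p 0.015) with reperfusion, where 5.38% of all probe sets were called. Dimmer probe sets of Kcnj6 and Kcnj11 were called in the same comparison. A second Kcnj3 probe set (1369741_at), also never above the bound, gave -0.33, -0.71 and -0.26 for the same 3 comparisons, none of them called. The 2 probe sets went opposite ways, so the direction of Kcnj3 is not settled.

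Kcnj6 (Kir3.2), best known from neurons, read 4.98, 8.70, 7.89 and 7.96 in ischemia at 0 min, again lowest on the array that stood apart. Its change at 120 min of ischemia was 0.92 (SE 0.29, limma adjusted p 0.058) with all arrays and 0.00 (adjusted p 0.99) without that one. A dimmer Kcnj6 probe set (1369034_at), above the bound on 1 array, was called at 10 min (0.60, adjusted p 0.047) and 120 min (0.67, adjusted p 0.012) of ischemia, and between the arms at 60 min (0.67 higher with reperfusion, adjusted p 0.023). Kcnj4 (Kir2.3), an inward rectifier, changed by 1.08 at 120 min with all arrays and by 0.26 (adjusted p 0.11) without it.

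**Figure D4:**
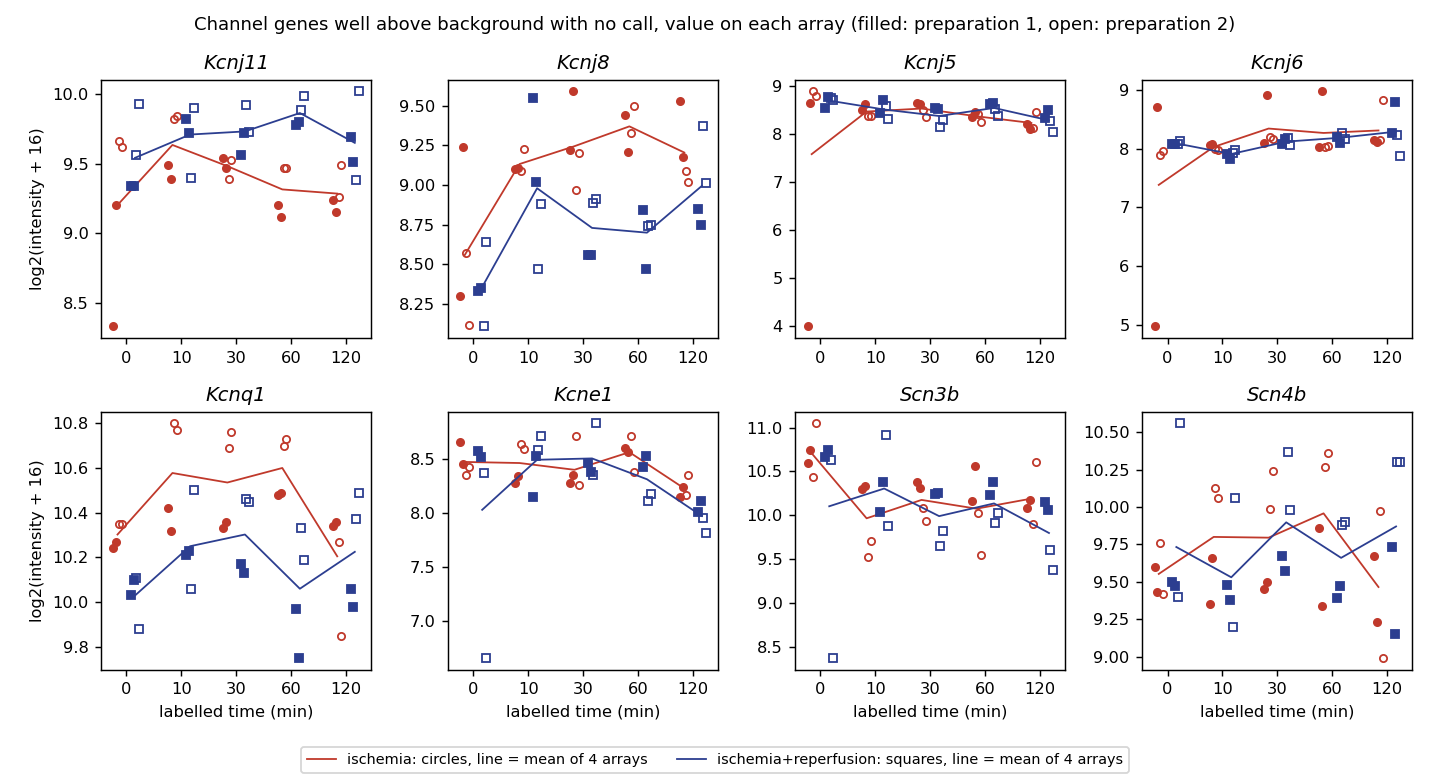
Level of 8 channel genes that were well above background and had no call, on every array, as log2(intensity + 16), against labelled time in min; red circles are ischemia, blue squares ischemia+reperfusion, filled marks preparation 1, open marks preparation 2, and lines join the means of 4 arrays. Single low arrays at 0 min stand out for Kcnj5 (4), Kcnj6 (4.98), Kcne1 (6.66) and Scn3b (8.37), and Kcnj8 is lower at 0 min than later in both arms on most arrays.

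Of the sodium channel genes, the beta subunits gave the firm signal. Beta subunits join the alpha pore and act also as cell adhesion proteins. Scn3b read 10.60, 10.74, 10.44 and 11.05 in ischemia at 0 min and 10.30, 10.33, 9.52 and 9.71 at 10 min, without overlap. The change was -0.74 (SE 0.28, limma adjusted p 0.16) and did not pass. A second bright Scn3b probe set (1370850_at), above the bound on all 40 arrays, gave -1.03 (adjusted p 0.098) at 10 min and -0.74 (adjusted p 0.13) at 120 min. Both probe sets were lower at every time of ischemia than at 0 min, and neither was called. In ischemia+reperfusion Scn3b read 10.67, 10.74, 10.63 and 8.37 at 0 min and 10.15, 10.06, 9.60 and 9.38 at 120 min, so 1 low array at 0 min set that group's mean. Scn4b lay between 8.99 and 10.56 over the 40 arrays, and its 8 changes against 0 min ran from -0.21 to 0.40 with no call.

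Only Scn1a and Scn10a of the 9 sodium channel alpha subunits were tested. Scn1a, a neuronal sodium channel, was not above the bound on any array. It read 6.97, 6.86, 7.52 and 7.35 in ischemia at 0 min, 6.13, 6.15, 6.39 and 6.26 at 10 min and 6.38, 6.33, 6.57 and 6.50 at 120 min, without overlap. Its mean was 7.18 in ischemia at 0 min and 6.41 over the other 9 groups, under the limit of 6.48 for testing, so it was tested only because of its high level in that 1 group. A fall from that group is thus favoured by the filter, and its values are given as a description. The differences were -0.94 (limma adjusted p 0.029) at 10 min, -1.13 (adjusted p 0.045) at 30 min and -0.73 (adjusted p 0.022) at 120 min. At 30 min it missed the threshold without the outlying 0 min array (adjusted p 0.08) and without the pair at 120 min (adjusted p 0.066). The values in ischemia+reperfusion were 6.54, 6.60, 6.98 and 6.64 at 0 min, and no later time was called there.

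The voltage-gated subunits Kcna2 (Kv1.2) and Kcnd2 (Kv4.2) had calls without being above the bound on any array. Kcna2 read 4, 4.67, 6.71 and 4.86 in ischemia at 0 min and 6.89, 6.83, 6.85 and 7.08 at 120 min, without overlap. It rose by 1.99 (SE 0.40, limma adjusted p 0.036) at 10 min and 1.85 (adjusted p 0.017) at 120 min. In ischemia+reperfusion it already read 7.06, 7.16, 6.76 and 6.80 at 0 min, and its 4 changes there ran from -0.24 to 0.20. The 3 lowest of its 40 values were thus all in ischemia at 0 min. At 10 min of ischemia the call was lost without either second duplicate of preparation 2, and at 120 min without the 0 min one, with an adjusted p of up to 0.14 and 0.11. The call at 10 min also missed the threshold without the pair of arrays at 120 min (adjusted p 0.056).

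Kcnd2 carries the fast transient outward current of rodent heart together with Kcnd3 and the auxiliary subunit Kcnip2. It read 6.50, 6.88, 6.80 and 7.25 in ischemia at 0 min and 7.17, 7.42, 7.18 and 7.11 at 120 min, with overlap. The rise at 120 min was 0.36 (SE 0.11, limma adjusted p 0.048), and 4 of the 8 single arrays of this comparison each ended the call when left out: at 0 min the first duplicate of either preparation, and at 120 min the second duplicate of preparation 1 and the first of preparation 2 (adjusted p up to 0.21). A second Kcnd2 probe set gave -0.25 (adjusted p 0.25). Kcnd3 had no call, and in ischemia+reperfusion it read 7.08, 6.44, 6.44 and 6.34 at 0 min and 7.19, 7.06, 7.34 and 7.37 at 30 min, with 0.66 (adjusted p 0.15). Kcnip2 read 4 to 7.41 in ischemia at 0 min, and its change at 120 min was 1.22 (adjusted p 0.13) with all arrays and 0.50 (adjusted p 0.51) without the outlying one.

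Kcne3, an auxiliary subunit of several voltage-gated potassium channels, was above the bound on 6 arrays. It read 7.64, 6.31, 7.25 and 5.67 in ischemia at 0 min and 7.45, 7.66, 7.37 and 7.54 at 120 min, so the 0 min arrays were widely spread. In ischemia+reperfusion it read 7.82, 7.94, 7.09 and 7.45 at 0 min and 7.79, 6.67, 6.48 and 6.43 at 60 min. The rise at 120 min of ischemia was 0.79 (SE 0.18, limma adjusted p 0.020), and the fall at 60 min of ischemia+reperfusion 0.73 (adjusted p 0.044). Groups overlapped in both, and neither passed with duplicates taken as separate samples (limma adjusted p 0.14 and 0.23). The first call was lost without either second duplicate at 0 min, and the other without the second duplicate of preparation 2 at 0 min or of preparation 1 at 60 min, with an adjusted p of up to 0.30 and 0.26. The change of the reperfusion arm minus that of the ischemia arm was -1.43 at 120 min (SE 0.25, unadjusted p 0.00013, adjusted p 0.14), which did not pass. No channel gene was called in the test of the 4 arm by time terms, where 0.00537% of all probe sets were called and 6 channel genes had an unadjusted limma p under 0.05.

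**Figure D5:**
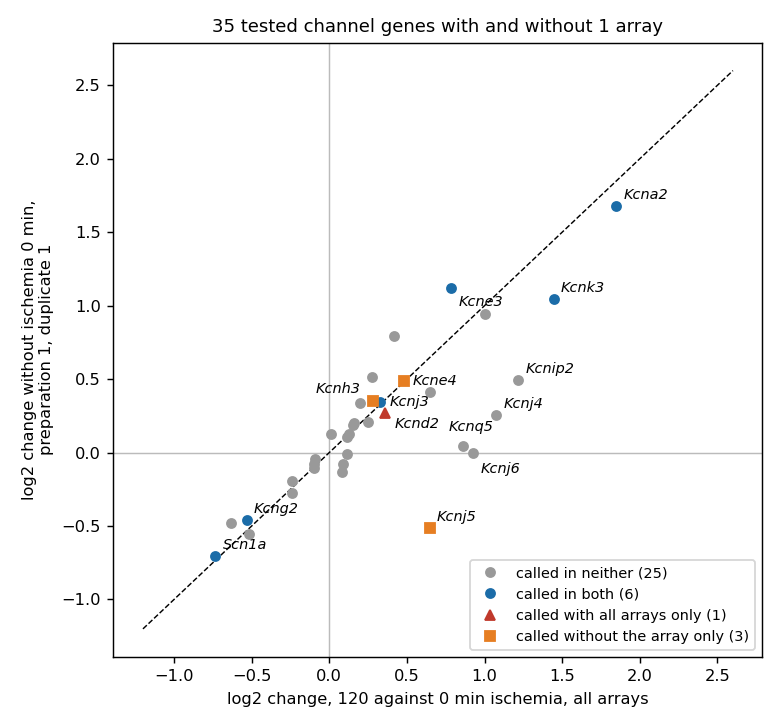
Log2 change at 120 against 0 min of ischemia for the 35 tested channel genes, with all arrays on the horizontal axis and without the first duplicate of preparation 1 at 0 min on the vertical axis; the dashed line is equality and colours show in which fit a gene was called. Kcnk3, Kcng2, Kcna2, Kcne3, Kcnj3 and Scn1a were called in both, Kcnd2 with all arrays only, and Kcnj5, Kcne4 and Kcnh3 without the array only, and Kcnj5 changed sign.

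Leaving out the outlying array at 0 min moved 8 of the 35 changes at 120 min of ischemia by more than 0.3. The moves of Kcnj4, Kcnj5, Kcnj6, Kcnq5 and Kcnip2 ran from -1.16 to -0.72. Without it 9 channel genes were called at 120 min (13.2% of all probe sets), 0 at 30 min (0.0107%) and 0 at 60 min (0.0913%). Between the arms at 0 min, where 0 channel genes were called with all arrays (0.333% of all probe sets, 9 channel genes at an unadjusted limma p under 0.05), Kcne3 and Kcnj3 were called without it (0.843% of all probe sets).

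At the other times no channel gene passed between the arms. Channel genes called between them numbered 0 at 10 min (0% of all probe sets were called, 3 channel genes at an unadjusted limma p under 0.05), 0 at 30 min (0.532%, 7 unadjusted) and 0 at 120 min (0%, 2 unadjusted). Comparing 120 with 10 min of ischemia also called 0 (0.698%, 4 unadjusted). A channel gene that misses the threshold in these comparisons is not shown to be equal. The median SE of a change over all probe sets was 0.118, and most tested channel genes had a larger SE, Kcna2, Kcnj5 and Kcnj6 among them.

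Ion pumps, exchangers, scaffolds and regulators that set the same currents and gradients were counted as a list. Of 43 such genes listed, 35 were on the array and 29 were tested. At 10 min of ischemia 2 rose and 0 fell, Hcn2, a pacemaker channel, and Slc4a4, where 1.98% of all probe sets were called. At 60 min of ischemia+reperfusion 2 rose and 0 fell, Fxyd5 and Slc4a4 (4.69% of all called). At 30 and 60 min of ischemia and at 10 and 30 min of ischemia+reperfusion 0 were called. At 120 min of ischemia 1 rose and 0 fell, where 6.45% of all probe sets rose and 6.48% fell. At 120 min of ischemia+reperfusion 2 rose and 1 fell, where 3.5% of all rose and 3.68% fell. Fxyd5, a regulator of the sodium pump, rose by 0.30 (SE 0.07, limma adjusted p 0.025) and 0.39 (adjusted p 0.016) in these comparisons. Slc4a4, a sodium bicarbonate cotransporter, rose by 0.58 (adjusted p 0.042) at 10 min of ischemia and by 0.71 (adjusted p 0.013) at 120 min of ischemia+reperfusion. Slmap, a membrane scaffold, fell by 0.20 in the last comparison. Between the arms at 60 min 1 of the 29 was called, Klf15, where 5.38% of all probe sets were called. Klf15, a transcription factor that regulates Kcnip2 in heart, was lower with reperfusion (-1.04, limma adjusted p 0.026). Kcnip2 differed by -0.06 (adjusted p 0.96) there, with a median SD within groups of 0.63. A link between the 2 was not tested.

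Promoter sequences were available from RefSeq (assembly GRCr8) for 62 of the 87 channel genes and for 4 of the 8 with a call, Kcna2, Kcnd2, Kcne3 and Kcng2. In the 250 bases before the start, both strands were searched for the core of the hypoxia response element, ACGTG. It was found in 7 of 62 channel gene promoters (11.3%) and in 16.6% of all 33469 promoters. The cyclic AMP response element TGACGTCA, which does not hold ACGTG, was found in 0 of 62 (1.59% of all), the AP-1 site TGANTCA in 3 of 62 (4.84%, against 6.34% of all), and the GATA site AGATAA in 7 of 62 (11.3%, against 10.3% of all). Of the 4 called genes with a promoter, 1 had an ACGTG match, Kcnd2, and it ends 113 bases before the start. Kcna2, Kcne3 and Kcng2 had a match to none of the 4 motifs. Kcnd2 and, as an example without a match, Kcne3 are shown 5′ to 3′ on the plus strand. Kcnd2 lies at chr4:50742235-50742484 and Kcne3 at chr1:163935785-163936034, with the ACGTG match in capitals. A match is only a run of letters, and none of these data measure binding.
Kcnd2: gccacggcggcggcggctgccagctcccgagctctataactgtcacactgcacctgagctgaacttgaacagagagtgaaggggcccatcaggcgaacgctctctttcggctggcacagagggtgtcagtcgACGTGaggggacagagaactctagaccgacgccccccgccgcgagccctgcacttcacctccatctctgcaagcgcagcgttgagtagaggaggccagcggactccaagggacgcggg
Kcne3: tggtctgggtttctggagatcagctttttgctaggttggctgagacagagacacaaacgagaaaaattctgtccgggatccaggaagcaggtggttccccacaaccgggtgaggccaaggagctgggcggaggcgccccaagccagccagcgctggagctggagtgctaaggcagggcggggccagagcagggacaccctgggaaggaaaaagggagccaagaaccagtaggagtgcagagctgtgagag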

How the data were processed

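Per the labels' protocols, RNA was purified on spin columns and amplified into biotin-labelled copies. The deposited values are probe set intensities on a linear scale (-1725 to 17404, 15.8% negative). How the authors made them, and their scaling, is not given in the sources used here. Array medians ran from 101 to 171.

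Values were quantile-normalized, floored at 0 and taken as log2(value + 16). Probe sets above the 40th percentile of the mean (an intensity of 73.2) were tested, 18625 of 31042. Duplicates were averaged, giving 2 preparations per group. The labels number the preparations within each group, and do not say that a number stands for the same preparation in every group. This was assumed. The number entered limma 3.58.1 (R 4.3.3) as an additive block over all 10 groups, which left 9 residual degrees of freedom. Tests were two-sided, with Benjamini-Hochberg adjustment. Differences between preparations were weakly correlated across groups (median r 0.18, from -0.18 to 0.53), and r exceeded 0.1 for 34 of 45 group pairs. These values do not settle whether the preparations were shared. No 2 arrays were identical. On simulated data for 120 against 0 min of ischemia (18625 probe sets), 48.5%, 85% and 98% of log2 changes of 0.5, 1 and 2 were recovered, with 27 false calls. The simulation drew independent noise for each array, with no preparation effect, no outlying array and 200 changed probe sets per size. The real data differ in these points, so the shares are not the recovery to be had there, nor that of channel genes.

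Named genes are all channel genes with a call and a list of main cardiac channels; Kcne4, Kcnj6, Kcnmb4 and Kcnq5 were added after their values were seen. Members, lists and tests were chosen with earlier results of these data known. Alternatives were the deposited scale, median centring, a pseudocount of 64, other filters, no block, duplicates as samples, other probe sets and arrays left out. The number of arrays limits the precision.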

Additional observations from a re-analysis of the deposited data

Results flagged for a closer look

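Among 350 combinations of a tested channel gene and a group, 23 held 1 array whose gap to the other 3 exceeded Dixon's 95% critical value, and chance flags about 1 group in 20. Levels are log2(intensity + 16), and the arrays are named by preparation and duplicate.

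In ischemia at 0 min, the first duplicate of preparation 1 read 4 for Kcnj5 (others 8.64 to 8.88), 4 for Kcnj4 (7.20 to 7.34), 4 for Kcnip2 (6.89 to 7.41) and 4.34 for Kcnq5 (7.57 to 7.74). This is the array with the lowest correlation to the rest. Also at 0 min of ischemia, the first duplicate of preparation 2 read 8.69 for Kcnh2 (7.85 to 7.91) and the second read 7.63 for Kcnmb4 (7.95 to 8.01).

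In ischemia+reperfusion at 0 min, the second duplicate of preparation 2 read 8.37 for Scn3b (others 10.63 to 10.74), 6.66 for Kcne1 (8.37 to 8.57) and 10.56 for Scn4b (9.40 to 9.50), and the first duplicate of preparation 1 read 7.08 for Kcnd3 (6.34 to 6.44).

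Kcnj15, an inward rectifier, was low on the first duplicate of preparation 2 in 4 groups: 4.95 in ischemia at 30 min (others 6.79 to 6.83), 4.14 in ischemia at 120 min (6.88 to 6.92), 5.94 in ischemia+reperfusion at 60 min (7.40 to 7.43) and 4.77 in ischemia+reperfusion at 120 min (7.10 to 7.30).

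Kcnj6 was high on the second duplicate of preparation 1 in ischemia at 30 min (8.91, others 8.09 to 8.19) and 60 min (8.97, others 8.02 to 8.05), and on the second duplicate of preparation 2 at 120 min (8.83, others 8.11 to 8.15). The remaining values were 5.55 for Kcne3 (others 7.65 to 7.76) and 7.58 for Kcnq5 (7.70 to 7.72), both on the first duplicate of preparation 2 in ischemia+reperfusion at 30 min, 6.55 for Kcnq3 on the second duplicate of preparation 1 in ischemia at 60 min (7.62 to 7.69), and 6.96 for Kcns3 on the second duplicate of preparation 1 in ischemia+reperfusion at 10 min (6.72 to 6.76). Scn10a read 7.76 on the second duplicate of preparation 2 in ischemia+reperfusion at 10 min (6.48 to 6.68) and 5.61 on the first duplicate of preparation 1 at 60 min (6.50 to 6.64).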

How the results depend on the processing

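Of 19 calls of a gene in a comparison, 10 were lost when some single array was left out, and 6, not counting Scn1a, which the filter kept only through its high level in ischemia at 0 min, passed in every such case and under every processing alternative that tested the probe set: Kcnk3 at 10 and 120 min of ischemia and at 60 and 120 min of ischemia+reperfusion, Kcng2 at 120 min of ischemia, and Kcnj3 between the arms at 60 min. The filter at the 60th percentile left Kcnj3 untested. The cause of the moves below was not tested. Other probe sets of the same gene reversed the direction of Kcnd2 (-0.253) and Kcng2 (0.235) at 120 min of ischemia, of Kcnk3 at 10 min (-0.243), and of Kcnj3 at 10 min (-0.329), at 120 min (-0.711) and between the arms at 60 min (-0.263). Kcnj5 at 120 min of ischemia ranged from -0.514, without the outlying array, to 1.807, without the other duplicate of that preparation. Counts of called channel genes moved as follows, where comparisons with 0 min are named by arm and time. Shares of all probe sets called are not given for most of these settings. The counts therefore show only how far the calls depend on the setting, not whether channel genes stand out from the array. On the deposited scale, where the median of all probe sets moved by -0.27 to 0.21 between groups, ischemia gave 2 at 10 min and 0 at 60 min, ischemia+reperfusion 0 at 30 min, 1 at 60 min and 1 at 120 min, the arms at 60 min 6 (all higher), 120 against 10 min of ischemia 4 (all lower), and the test over groups 12. A pseudocount of 64 gave 2 at 10 min and 0 at 30 min of ischemia. Without the filter, ischemia gave 0 at 30 and 0 at 60 min, ischemia+reperfusion 4 at 120 min, and the arms at 0 min 1. A filter at the 60th percentile, which tests fewer genes, gave 1 at 10 min and 3 at 120 min of ischemia, 2 at 30 min of ischemia+reperfusion and 0 between the arms at 60 min. With no replicate block for the preparation, ischemia gave 2, 0, 0 and 4 at the 4 times, ischemia+reperfusion 0 at 30 min, 1 at 60 min and 1 at 120 min, and the test over groups 2. Duplicates taken as separate samples gave 4 at 30 min and 5 at 60 min of ischemia, 3 at 30 min and 5 at 60 min of ischemia+reperfusion, between the arms 3 at 0 min, 2 at 30 min and 4 at 60 min, 1 for 120 against 10 min, 11 over groups and 1 for the arm by time terms. Without the pair at 120 min, ischemia at 30 min gave 0, ischemia+reperfusion at 120 min 1 and the arms at 60 min 2. Leaving out each array in turn gave 2 to 4, 0 to 3, 0 to 1 and 5 to 9 calls at the 4 times of ischemia, 0 to 1, 1 to 1, 2 to 4 and 1 to 4 at those of ischemia+reperfusion, 0 to 2 and 1 to 1 between the arms at 0 and 60 min, 0 to 0 at the other times, for 120 against 10 min and for the arm by time terms, and 4 to 9 in the test over groups. Genes well above background numbered 34 with the bound at the 75th percentile, 9 at the 99th, and 8 when all 40 arrays were required.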
